A study of Mus musculus with 10 samples.

Results

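The gene rows AK155692, AK034221 and AK140265 are 3 of the 32531 gene rows counted in striatal ribosome-bound RNA of mice, and they were taken by name because earlier results of these libraries showed them at different levels between groups. Their differences between groups are therefore given as descriptions, and calls from the fit over all rows are given as counts that add no support. All 3 were found in every library. The assay was translating ribosome affinity purification with sequencing (TRAP-seq), in which EGFP-tagged ribosomes of one cell class are captured and their RNA is read. All mice were of the Drd1-TRAP CP73 genotype, in which the Drd1 promoter drives the tag in cells that express the dopamine D1 receptor, and came from an FVB/N-Swiss Webster x C57BL/6 background bred at least 9 generations to C57BL/6.

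The mice were adults of a short-access study of intravenous self-administration, and the whole striatum was used. There were 3 pull-downs from saline self-administration, 3 from cocaine self-administration, 3 from yoked controls, with total RNA of 1 input library beside them, each named by its group and number below. What the yoked mice received, and whether a group's libraries are from different animals, is not given in the labels, so the spread between libraries may be technical. The pull-downs held 12.5 to 45.2 times 1e+06 gene counts and the input 40.5 times 1e+06. In the input Drd1 stood at 331 CPM (counts per 1e+06 gene counts) and in the pull-downs at 592 to 930 CPM. The astrocyte glutamate transporter gene Slc1a2 stood at 1769 CPM in the input and at 88.9 to 538 CPM in the pull-downs.

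Symbols of this form are accession numbers of sequenced mouse cDNA clones, which an annotation carries where a clone has no gene name. Such rows can hold noncoding transcripts, unspliced or alternative pieces of known genes, or copies of abundant RNAs. A ribosome pull-down enriches messages under translation and loses RNA that stays in the nucleus or off the ribosome, and it also loses RNA of cells without the tag. The level of a clone in the pull-down beside that in the input depends on both, and on the tissue that went into the single input. These cannot be told apart here. The files held 3054 rows with AK symbols, of which 0 matched a symbol, synonym or transcript in the reference tables used here (assembly GRCm38.p6), against 24207 of all 32531 rows. No position, neighbouring gene, sequence or function is therefore given for the 3 clones. Whether counting used strand is not stated, so a clone's reads cannot be separated from those of an antisense neighbour, and no clone length was at hand to compare levels between clones.

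AK155692 stood at a higher level in each cocaine library than in any saline library. It was at 62.4, 80.0 and 73.4 CPM in saline 1, 2 and 3. In cocaine 1, 2 and 3 it was at 162, 181 and 176 CPM. In yoked 1, 2 and 3 it was at 143, 153 and 62.6 CPM, so that the first and second yoked libraries lay near the cocaine group and the third lay within the saline range. The cocaine libraries also lay above all yoked libraries, while yoked and saline libraries overlapped. The saline mean was 71.9 ± 8.89 CPM, the cocaine mean 173 ± 9.46 CPM and the yoked mean 120 ± 49.6 CPM (SD, n = 3 each).

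**Figure D1:**
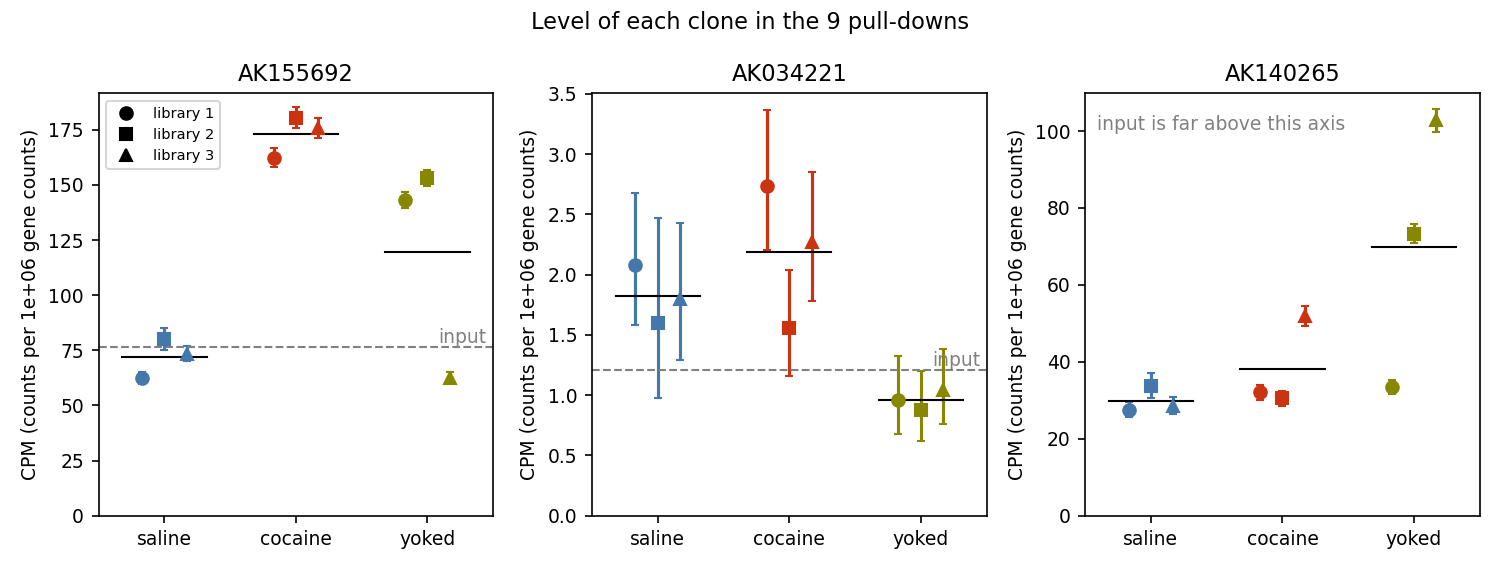
Level of AK155692, AK034221 and AK140265 in CPM (y axis, from 0) for the 3 libraries of each group (points, with exact 95% Poisson intervals of the count), the group mean (black line) and the input (dashed line, off the scale for AK140265). AK155692 in yoked 3 sits at 62.6 CPM beside 143 and 153 CPM in the other yoked libraries, and AK140265 is highest in the same library, at 103 CPM.

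The spread of AK155692 was wider than counting error. Its count ran from 1002 in saline 2 to 6666 in yoked 2, and counting alone would give a coefficient of variation of 1.33% in the cocaine and 1.42% in the yoked group. The observed coefficients were 5.47% and 41.5%. Libraries of the same number also carry consecutive numbers in brackets in their titles, whose meaning is not given. Between libraries of the same number the ratio of cocaine to saline was 2.60, 2.26 and 2.40. The ratio of yoked to saline was 2.30 and 1.91 for numbers 1 and 2 but 0.854 for number 3. Every saline library was shallower than every cocaine and yoked library. The 4 libraries lowest in AK155692 were saline 1, 2 and 3, with 28.4, 12.5 and 23.4 times 1e+06 gene counts, and yoked 3, the deepest pull-down, with 45.2 times 1e+06. The part of depth was not tested.

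The sequencing lane in the labels was 3 for saline, 1 for cocaine, 2 for yoked and 5 for the input libraries, so a difference between lanes and one between groups cannot be told apart. The 3 yoked libraries, of 1 lane, ran from 62.6 to 153 CPM for AK155692. The ribosomal RNA row Rn45s took 10.5%, 12.8% and 14.3% of gene counts in saline 1, 2 and 3, and 11.4%, 16.9% and 20.5% in cocaine 1, 2 and 3, a higher share in cocaine than in saline at each number. In yoked 1, 2 and 3 it took 14.7%, 15.2% and 15.1%. The microRNA gene row Mir6236, named after its values were seen, was at 4611, 7367 and 6314 CPM in saline, 5180, 7634 and 8863 CPM in cocaine and 6732, 7521 and 2532 CPM in yoked 1, 2 and 3. It was thus lowest in yoked 3, where AK155692 was also low. The part of these RNAs in the level of AK155692 was not tested. Markers of D1 neurons, 9 of 10 listed genes in the files, summed to 2647 to 3101 CPM in saline libraries, 2587 to 2951 CPM in cocaine and 2385 to 3510 CPM under the yoked control, with 0 of them at 0 in any pull-down. These ranges overlapped in all 3 groups. The highest sum, 3510 CPM, was that of yoked 3, and the next was 3101 CPM in saline 3. Drd1 itself was also highest in yoked 3, at 930 CPM. The part of this in the level of AK155692 was not tested. In such bulk RNA, fewer cells of a type and less RNA per cell cannot be told apart.

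Against the input, AK155692 fell on both sides. The input held it at 76.5 CPM (3099 counts). Saline libraries were at 0.816 to 1.05 of that level, cocaine libraries at 2.12 to 2.36, and yoked 1, 2 and 3 at 1.87, 2.0 and 0.819. AK155692 was thus above the input in 6 of 9 pull-downs, namely the 3 cocaine libraries, yoked 1, yoked 2 and, by a ratio of 1.05, saline 2. With a single input library these ratios have no test.

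AK034221 was a clone of few counts whose yoked libraries were the lowest. It held 20 to 90 counts in a pull-down. In saline 1, 2 and 3 it was at 2.08, 1.60 and 1.80 CPM. In cocaine 1, 2 and 3 it was at 2.74, 1.56 and 2.27 CPM, with cocaine 2 below all saline libraries. In yoked 1, 2 and 3 it was at 0.958, 0.872 and 1.04 CPM, below every library of both other groups. The saline mean was 1.82 ± 0.241 CPM, the cocaine mean 2.19 ± 0.595 CPM and the yoked mean 0.957 ± 0.0832 CPM (SD, n = 3 each).

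Counting error was large for AK034221. The exact 95% Poisson interval was 0.763 to 1.38 CPM for yoked 3, the highest yoked library, and 1.16 to 2.04 CPM for cocaine 2, the lowest cocaine library, and these overlapped. The coefficient of variation in the yoked group, 8.70%, was below the 15.7% that counting alone gives, and in the cocaine group it was 27.2% against 11.8%. Such intervals cover counting error only. Summed over the group, the clone had 121 saline, 215 cocaine and 122 yoked counts. The ratio of cocaine to yoked was 2.86, 1.78 and 2.18 between libraries of the same number, and that of yoked to saline 0.461, 0.547 and 0.579.

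In the input AK034221 stood at 1.21 CPM, with 49 counts and a Poisson interval of 0.895 to 1.60 CPM. Saline libraries were at 1.32 to 1.72 of the input level and cocaine libraries at 1.29 to 2.26. Yoked libraries were at 0.721 to 0.859 of it. The interval of the input alone reached from 0.895 CPM, below yoked 1, to 1.60 CPM, near saline 2.

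AK140265 was almost absent from the ribosome-bound RNA relative to the input. It took 1826303 of the input's gene counts, or 4.51%, which made it the second most counted of 32531 rows after Rn45s at 12.5%. Its input level was 45072 CPM. In saline 1, 2 and 3 it was at 27.5, 33.8 and 28.5 CPM. In cocaine 1, 2 and 3 it was at 32.1, 30.5 and 51.9 CPM, and in yoked 1, 2 and 3 at 33.4, 73.3 and 103 CPM. The input was 439 times higher than the highest pull-down, yoked 3, and 1642 times higher than the lowest, saline 1. These ratios far exceed the spread between pull-downs, in which the highest and lowest library differed by 2.04 on the log2 scale after TMM scaling, but the input is 1 library and the ratio has no test.

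**Figure D2:**
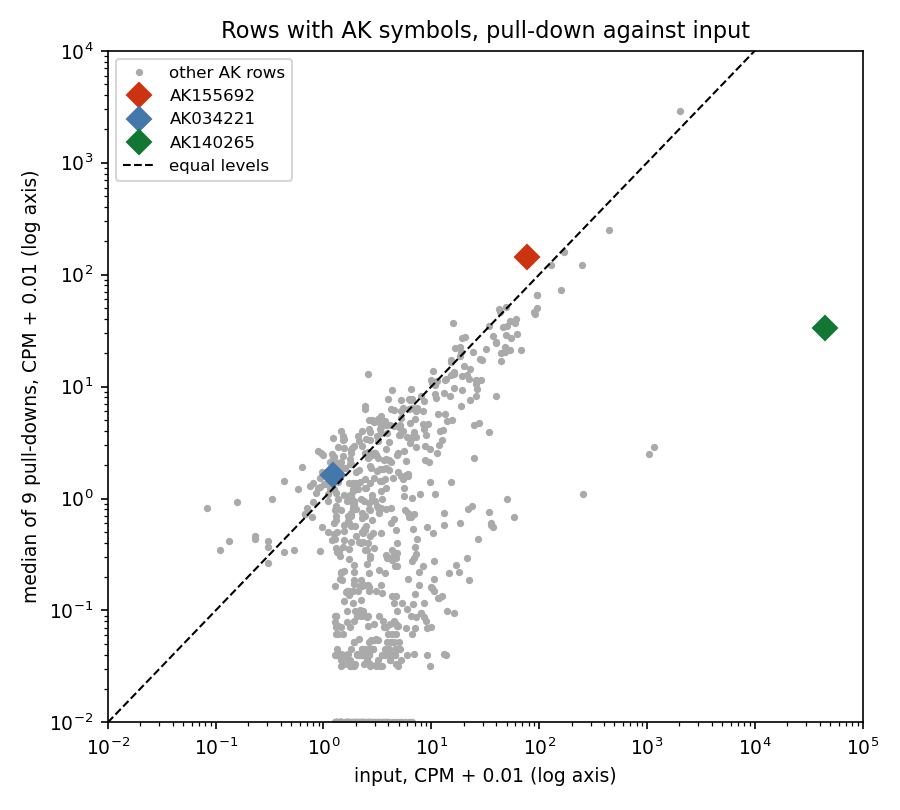
Median level over the 9 pull-downs (y axis, log scale) against the level in the input (x axis, log scale), both in CPM plus 0.01, for the 735 rows with AK symbols and a count of at least 50 in some library, which sets the edge on the left. AK140265 sits at 45072 CPM in the input and a median of 33.4 CPM in the pull-downs, while AK155692 and AK034221 lie near the line of equal levels.

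The median log2 ratio of pull-down to input, with 0.5 CPM added to each, was -10.38 for AK140265, 0.90 for AK155692 and 0.29 for AK034221. Among 14216 rows with a count of at least 50 in some library, AK140265 had the second lowest ratio. The lowest was that of growth hormone (Gh), a pituitary hormone gene at 2356 CPM in the input and at 0 to 340 CPM in the pull-downs. The pituitary hormone genes Prl and Cga were at 174 and 51.3 CPM in the input. In the pull-downs they were at 0 to 23.6 and 0 to 6.27 CPM. Whether the input differed from the pull-downs in the tissue taken was not tested. The nuclear noncoding RNA Malat1 had the 10th lowest, with 38014 CPM in the input and 114 to 387 CPM in the pull-downs. With the same 0.5 CPM added, rows below a hundredth of the input in all 9 pull-downs numbered 7, and 4 of them had AK symbols, namely AK140265, AK142750, AK018753 and AK163440. AK142750 was at 1036 CPM in the input and at most 3.37 CPM in a pull-down. AK018753 was at 1163 CPM in the input and at most 5.64 CPM in a pull-down.

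AK rows as a class lay low in the pull-downs. In the 735 AK rows with a count of at least 50 in some library the median ratio to the input was 0.293, and 189 of them (25.7%) were below 0.25 of the input in each pull-down. Over all 14216 such rows the median was 0.961 and 411 (2.89%) were that low. A row can enter this set through the input alone. In the 569 AK rows that passed a filter on the pull-downs only, the median ratio was 0.726, beside 0.976 for all 14680 rows that passed it. AK155692 and AK034221 had 6 of 9 pull-downs above the input each, while both medians of their class lay below it. AK034221 entered the set of 735 through pull-downs only, as it had 49 counts in the input. In saline 2 the Poisson interval of each of these clones overlapped that of the input. The clones were chosen on differences between the groups, so nothing is read from the 6 of 9. Of the 569 AK rows, 50.1% were below the input in all 9 pull-downs and 12.1% above it in all 9. AK rows made up 0.556% to 0.672% of a pull-down's gene counts and 5.63% of those of the input, of which AK140265 alone was 80.1%. Without it the AK share of the input was 1.12%.

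What was left of AK140265 in the pull-downs was unequal between libraries. The 3 groups overlapped in every comparison. Yoked 1 at 33.4 CPM lay below saline 2 at 33.8 CPM and below cocaine 3 at 51.9 CPM. Cocaine 2 at 30.5 CPM also lay below saline 2. The saline mean was 29.9 ± 3.38 CPM, the cocaine mean 38.1 ± 11.9 CPM and the yoked mean 69.8 ± 34.8 CPM (SD, n = 3 each), and the higher means rested on cocaine 3, yoked 2 and yoked 3. Counting alone would give a coefficient of variation of 1.82% in the yoked group, where 49.8% was observed. The ratio of yoked to saline was 1.22, 2.17 and 3.60 for numbers 1, 2 and 3.

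RNA of other sources did not follow one order in those libraries. The 10 astrocyte markers, all in the files and 0 of them at 0 in a pull-down, summed to 1138 CPM in yoked 2, the highest pull-down, but to 241 CPM in yoked 3 and 233 CPM in cocaine 3. By group that sum ran from 227 to 666 CPM (saline), from 233 to 489 CPM (cocaine) and from 241 to 1138 CPM (yoked). The 8 nuclear-retained noncoding RNAs, which include Malat1, summed to 574 CPM in yoked 2, 287 CPM in yoked 3 and 188 CPM in cocaine 3. In the saline libraries they summed to 259 to 312 CPM. The 10 cortical glutamatergic markers, 1 of them at 0 in a pull-down, summed to 147 CPM in yoked 3, the highest pull-down. Their sum was 124 CPM in cocaine 3 but 47.1 CPM in yoked 2. It was 134 CPM in yoked 1, where AK140265 was not raised, and 40.6 to 101 CPM in saline libraries. Yoked 2 was thus high in AK140265, in astrocyte RNA and in nuclear RNA, while yoked 3, with the most AK140265, had an astrocyte sum near the lowest. The part of these RNAs in the level of AK140265 was not tested.

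Across the whole table, 14680 rows passed the filter on low counts and were fitted with edgeR's quasi-likelihood test on all 9 pull-downs. The comparisons of the 3 groups with each other share libraries, so their values are set side by side and not compared. With p adjusted by Benjamini-Hochberg and a threshold of 0.05, the test called 0 of the 3 clones in each comparison, beside 0% of all rows. At an unadjusted p under 0.05 it held 417 rows (2.84%) for cocaine against saline, 379 (2.58%) for cocaine against yoked and 270 (1.84%) for yoked against saline. DESeq2 called 1, 0 and 0 rows in these comparisons and limma-voom 0 in each. The 1 row was AK155692, and as the clone was chosen on differences between these groups the call adds no support.

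The fitted log2 fold change of AK155692 was 1.32 ± 0.25 (SE) for cocaine against saline, 0.56 ± 0.24 for cocaine against yoked and 0.76 ± 0.24 for yoked against saline. For AK034221 it was 0.31 ± 0.36, 1.20 ± 0.36 and -0.89 ± 0.36 in the same order. For AK140265 it was 0.42 ± 0.37, -0.87 ± 0.37 and 1.28 ± 0.37. Over the 569 AK rows tested, the medians were -0.05, -0.06 and 0.03, and over all rows 0.0036, -0.03 and 0.03. By size of the fold change among those 569 AK rows, AK155692 ranked 22nd, 148th and 95th in the same order of comparisons. AK034221 ranked 267th, 30th and 71st, and AK140265 ranked 195th, 65th and 30th. The clones were chosen on such differences, so the ranks add no support.

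**Figure D3:**
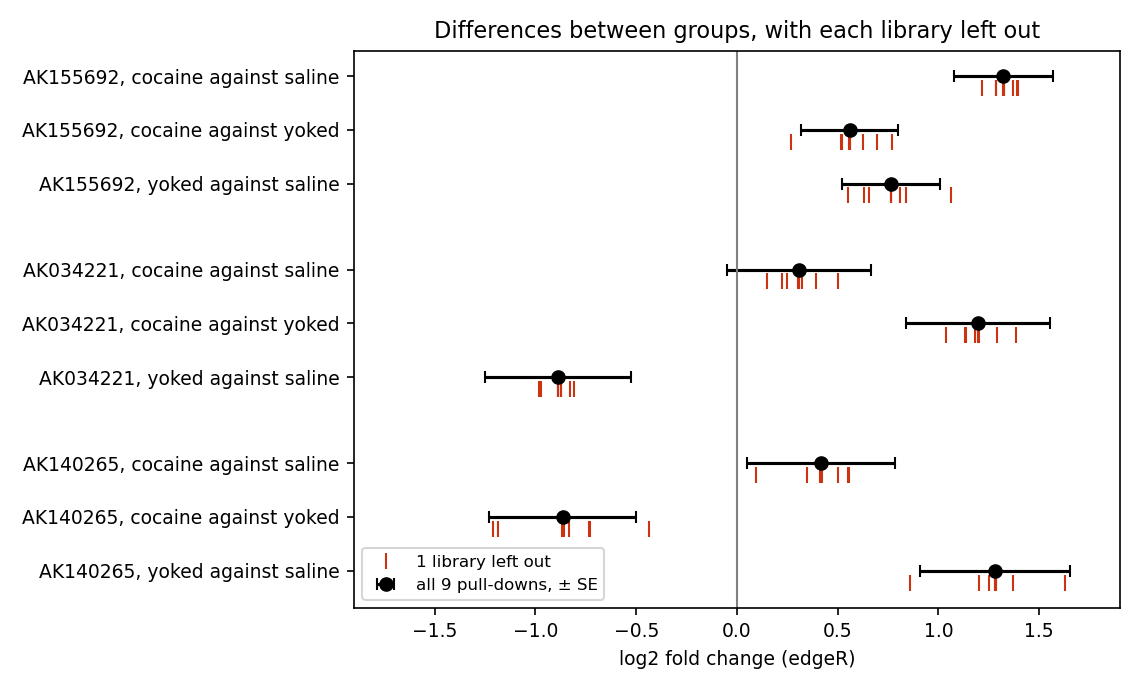
Log2 fold change by edgeR (x axis) of each clone in the 3 comparisons, with all 9 pull-downs (black points, bars are ± SE) and with each library left out in turn (red ticks). For AK155692, cocaine against saline stays between 1.21 and 1.40, while cocaine against yoked runs from 0.27, without yoked 3, to 0.77.

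Single libraries carried part of these values. Without yoked 3 the log2 fold change of AK155692 was 0.27 for cocaine against yoked and 1.06 for yoked against saline, and that of AK140265 was -0.44 and 0.86. Without cocaine 3 the value of AK140265 for cocaine against saline was 0.10, and without cocaine 1 that of AK034221 was 0.15. With yoked 3 left out edgeR also called AK155692 for cocaine against saline and for yoked against saline. The clone was chosen on differences between these groups, so these calls add no support either.

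Libraries of compared groups failed to overlap for some clones. Cocaine lay wholly above saline for 1 of the 3 clones, AK155692, as it did for 552 of 14680 rows (3.76%), and wholly below it for 0 clones and 7.31% of rows. Cocaine lay wholly above yoked for AK155692 and AK034221, 2 of the 3, beside 2.87% of rows, and wholly below it for 0 clones and 3.6% of rows. Yoked lay wholly below saline for 1, AK034221, beside 4.42% of rows, and wholly above it for 0 clones and 2.48% of rows. The clones were chosen on these differences, so nothing is read from the counts. Over the 9 pull-downs the log2 values spanned 1.64 for AK155692, 1.56 for AK034221 and 2.04 for AK140265, with a median span of 0.853 over all rows and 1.55 over AK rows.

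The rows most like each clone were found by the root mean square difference of log2 CPM over the 9 pull-downs, after each row was centred on its mean. Rows picked in this way share the highs and lows of a clone by construction, so their values are given as descriptions only. For AK155692 these were Hist1h3i, a replication-dependent histone H3 gene, at a difference of 0.227, the zinc finger gene Zfp217 at 0.249 and the surfactant protein gene Sftpc at 0.283, where the median row was at 0.698. Hist1h3i was at 0.309 CPM in yoked 3 beside 0.570 and 0.781 CPM in yoked 1 and 2, and at 0.669 to 0.987 CPM in cocaine libraries. All 3 had mean counts of 19.1 to 28.3, far under those of AK155692, and lay close to the floor that 3 counts set, 0.0663 to 0.239 CPM.

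For AK034221 the closest rows were another clone, AK140192, at 0.201, the microRNA gene row Mir2137 at 0.271 and Ccdc57, a coiled-coil gene, at 0.324 (median row 0.585). AK140192 was at 0.518, 0.321 and 0.398 CPM in the yoked libraries and at 0.748 to 1.09 CPM in the others. For AK140265 they were the zinc finger gene Zfp429 at 0.296, the glycogen phosphorylase gene Pygl at 0.302 and A730020E08Rik at 0.326 (median row 0.717). As the choice by likeness favours, each of these 3 was highest in yoked 3, Zfp429 at 3.34 CPM, Pygl at 1.95 CPM and A730020E08Rik at 4.07 CPM. Unlike AK140265 they were not far under the input, with median ratios of 1.03, 0.656 and 0.871. Of the 9 rows named, 1 had an AK symbol.

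**Figure D4:**
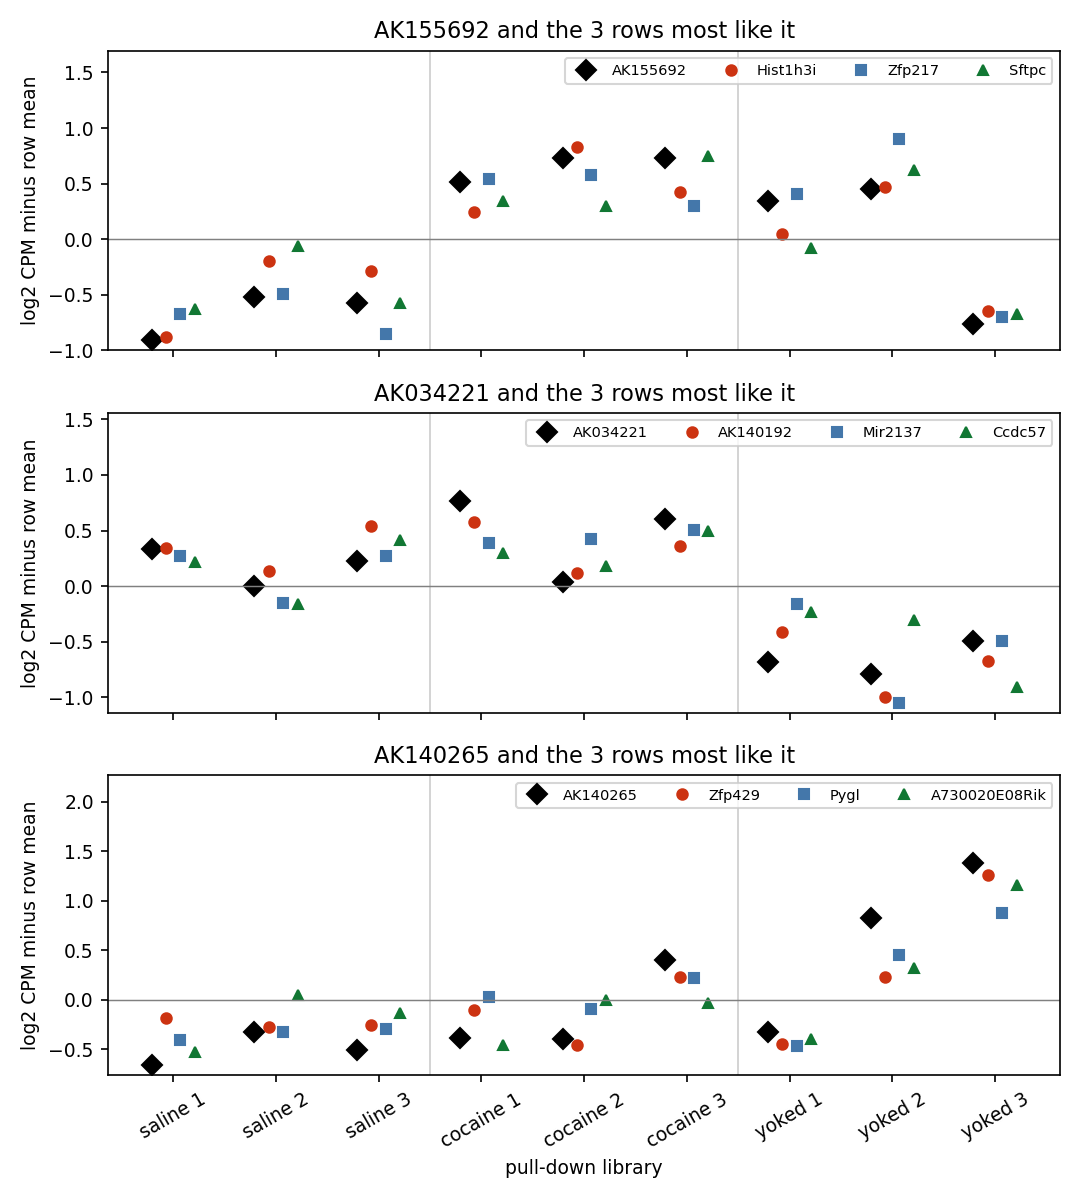
Log2 CPM minus the mean of each row (y axis) in the 9 pull-downs (x axis, grouped as saline, cocaine and yoked) for each clone (black diamonds) and the 3 rows most like it (coloured points). The rows like AK155692 share its low value in yoked 3, and those like AK140265 share its highest value there, at 3.34 CPM for Zfp429. Both follow from the choice of rows by likeness over these libraries.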

How the data were processed

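Each library has 1 deposited file of raw read counts by gene symbol. The submitters' processing notes name STAR 2.0.0e, HTSeq and the build mm10. Annotation, strand setting, counting mode and the version of HTSeq were not given in the sources used here. Rows naming no gene were left out. Of uniquely aligned reads, 12.3% to 16.1% in pull-downs and 27.6% in the input lay in no feature, and 2.54% to 3.03% and 6.63% were ambiguous. CPM are counts per 1e+06 gene counts. Counts of replicate pairs differed beyond sampling noise, with a chi-square of 15.3 to 169 per degree of freedom. It was 26.4 for yoked 1 and 2, 122 for yoked 1 and 3 and 169 for yoked 2 and 3. In the cocaine group it was 45 to 109.

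Group fits used edgeR 4.0.16 in R 4.3.3 (quasi-likelihood, robust, TMM, filterByExpr, with group as the only term). The fit was first run on simulated counts with no outlying library. Their spread between libraries was set below the common biological coefficient of variation of these data, 23.7%. That run therefore does not show how the fit behaves on these libraries. SE is the fold change over the root of F. DESeq2 1.42.0 and limma 3.58.1 were alternatives. Members, lists and alternatives were chosen with earlier results of these data known. Named rows were the 3 clones, the 3 rows most like each (TMM-scaled log2 CPM, prior count 2) and fixed check genes. Hormone rows and other low-ratio rows were named after their values were seen. Intervals are exact 95% Poisson.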

Additional observations from a re-analysis of the deposited data

How the results depend on the processing

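Called rows numbered 0 in each comparison and 1 for cocaine against saline by DESeq2 and by edgeR on only the 2 groups compared. That row was AK155692 each time, a clone chosen on differences between these groups, so that the calls add no support. The labels do not say that a number, or the run of bracketed numbers in the titles, marks a shared batch or animal. Not every same-number pair passed the bar for pairing: 6 of 9 same-number pairs correlated above 0.1 over genes (-0.02 to 0.25). The pairs of number 1 were at -0.02 to 0.05, and pairs of unlike numbers at -0.25 to 0.15. Of the 9 libraries, 7 correlated best with their own number. This is a hint of pairing from the data, and the design does not state it. With the replicate block edgeR called 1 row in each comparison, Gh each time, and the clones kept their direction. Leaving out each library in turn gave 0 to 1 called rows for cocaine against saline and for yoked against saline. It gave log2 fold changes of 0.27 to 0.77 (cocaine against yoked) and 0.55 to 1.06 (yoked against saline) for AK155692, and of -1.21 to -0.44 and 0.86 to 1.63 for AK140265. The outer values at 0.27, 1.06, -0.44 and 0.86 were those without yoked 3, and the cause was not tested. The other fitted values moved by less than 1 SE, with 0 changes of sign among the 9 fitted values under 17 alternatives each. The 3 ratios to the input moved by less than the SD over pull-downs, also with AK140265 left out of the totals, which was added after seeing the data. That SD includes the spread between groups and is a wide bar. The median log2 ratio of AK155692, 0.90 with all 9 pull-downs, ran from 0.48 to 0.95 with a library left out. Depth limits AK034221 most, at 20 to 90 counts a library.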

Other observations

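The rows most like the clones held few counts. Likeness was therefore also computed over the 7130 rows with a mean count of at least 500, a choice made after the values were seen. The 9 rows named before had mean counts of 11.4 to 112, so this limit left all of them out in advance. Highs and lows shared with a clone again follow from the choice by likeness. The closest to AK155692 were then Ttc9b at a root mean square difference of 0.396, the histone H4 gene Hist1h4d at 0.398 and the immediate early gene Junb at 0.409. Hist1h4d was at 128 CPM in yoked 3 and at 231 and 176 CPM in yoked 1 and 2, at 213 to 285 CPM in cocaine and at 131 to 216 CPM in saline libraries, so that its groups overlapped. The closest to AK034221 were Tbc1d13 at 0.365 and Taf5l at 0.380. The closest to AK140265 were the splicing kinase gene Clk1 at 0.336, Rsrp1 at 0.369 and Tiparp at 0.381. Clk1 was at 31.6 CPM in yoked 3, 27.4 CPM in yoked 2 and 14.7 to 21.8 CPM in the other pull-downs, with 51.2 CPM in the input, and Rsrp1 was at 50.4 and 48.5 CPM in yoked 3 and 2 with 108 CPM in the input. Both were below the input in all 9 pull-downs, at median ratios of 0.367 and 0.293, whereas Tiparp was at 1.08. Of all 14680 rows tested, 33.4% were below the input in all 9, so nothing is read from this.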
